A study of Danio rerio with 16 samples.

Results

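The proteasome genes of the embryonic zebrafish heart were defined by symbol, as every gene whose name starts with psm, one letter from a to g and a digit. Of the 15419 genes counted, 56 met this definition. They comprised 9 psma, 14 psmb, 8 psmc, 16 psmd, 5 psme, 1 psmf and 3 psmg symbols. Psmc3ip and psme3ip1 matched by name but do not encode proteasome subunits, which left 54 subunits, activators, inhibitors and assembly factors. RNA was sequenced from 16 pools of 35 to 70 hearts dissected at 48 hpf (hours post-fertilization), 8 pools from DKO and 8 from CTRL embryos. DKO embryos were homozygous for frameshifting deletions in both rbfox1l (chb5 allele) and rbfox2 (chb6 allele), which encode RNA-binding regulators of splicing. CTRL embryos are named sibling controls in the labels, with no genotype given per pool, while the description of the series calls them wild type. Both groups were of the Tubingen strain and carried the myl7:GFP reporter, which marks the myocardium. Neither mutation was restricted to the heart.

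The proteasome is the large protease that degrades proteins tagged with ubiquitin. Its core particle is a barrel of alpha rings (psma genes) around beta rings (psmb genes), and 3 of the beta subunits cut the substrate. The regulatory particle caps the barrel: a base with ATPases (psmc genes) unfolds the substrate, and a lid (most psmd genes) removes the ubiquitin. Activators (psme) are alternative caps, and dedicated chaperones (psmg, psmd5, psmd9 and psmd10) build the particles. In striated muscle the proteasome takes part in the turnover of sarcomere proteins.

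Read counts assigned to genes were 9321265 to 18783628 per DKO library and 8809208 to 12991978 per CTRL library. Values below are CPM, the counts scaled to a common library total, after TMM normalization, a scaling that holds most genes level between libraries, and fold changes are DKO over CTRL. The targeted genes matched the labels: rbfox1l was at 64.0 ± 21.3 CPM in DKO and 441 ± 129 CPM in CTRL, and rbfox2 at 30.4 ± 4.82 CPM in DKO and 89.2 ± 35.8 CPM in CTRL (SD, n = 8 each). Markers of cell types moved between the groups, counted here at an adjusted p under 0.05 by edgeR's quasi-likelihood test. At that threshold 13.9% of all tested genes were lower in DKO and 13.2% higher. For cardiomyocytes, 9 of 13 tested markers were lower in DKO, and their summed level was 22022 to 54183 CPM in DKO and 41200 to 85606 CPM in CTRL. For erythrocytes, 7 of 7 were lower, and for endocardium 6 of 10 were lower and 1 higher. For epidermis, 5 of 6 were higher (sums of 14064 to 30179 CPM in DKO and 3843 to 17678 CPM in CTRL), and for leukocytes 6 of 8 were higher (452 to 1072 CPM in DKO and 338 to 604 CPM in CTRL). None of the cardiomyocyte markers in the count table was under 1 CPM throughout. In bulk samples fewer cells of a type and less RNA per cell cannot be told apart, and the part of these shifts in the results below was not tested. CTRL replicate 5 stood apart from its group, with a correlation of 0.955 with the rest against 0.972 or more for the other CTRL libraries.

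Proteasome transcripts as a whole made up 0.748% to 1.02% of gene counts in DKO (median 0.833%) and 0.681% to 0.918% in CTRL (median 0.873%), and the ranges overlapped. Of the 56 genes, 46 had enough counts to be tested and 10 did not. By edgeR's quasi-likelihood test with Benjamini-Hochberg adjustment over all 11750 genes tested, 2 of the 46 were lower in DKO at an adjusted p under 0.05 (psme4b and psmd8), against 13.9% of all tested genes. None was higher by this test, against 13.2% of all tested genes. In either direction, 4.35% of the proteasome genes were called, against 27.1% of all genes. At an unadjusted p under 0.05, 7 were lower (psmb4, psmb5, psmd8, psmd9, psmd11b, psmd14 and psme4b; 18.0% of all genes) and 2 were higher (psma6l and psmc3ip; 19.2% of all genes). DESeq2 called 3 lower and 1 higher, against 1795 lower and 1759 higher of all 11750 genes. Limma on FPKM, with 48 proteasome genes tested, called 1 lower and 3 or 4 higher, depending on the pseudocount. Those called higher included psmb9a, which edgeR did not test. Of all 11072 genes in the limma fits, 1167 were lower and 2515 higher with pseudocount 1, and 1159 lower and 2507 higher with 0.1. With the thresholds of the study (adjusted p under 0.05, a change over 1.5-fold and an FPKM over 5 in at least 1 library), 0 proteasome genes were called, against 4.66% of all genes lower and 3.32% higher. No proteasome gene had non-overlapping groups, against 4.38% of all genes with every DKO library lower and 1.29% with every DKO library higher.

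The differences were small and their intervals narrow. The 95% interval of the fold change lay within 1.5-fold in both directions for 41 of the 46 tested proteasome genes, or 89.1%, against 4720 of all 11750 tested genes. Intervals widen at low counts, and the 2 sets were not matched by level. The median size of the log2 fold change was 0.15 for the proteasome genes and 0.27 for all genes. For 34 of 46 it was under 0.2, against 39.3% of all tested genes. Of the 46, 0 differed by over 2-fold, against 1070 of all 11750 tested genes. Psma6l was just short of 2-fold, with a log2 fold change of 0.999. It was past 2-fold under library size alone (1.13) and with a replicate block (1.11), but not with DESeq2 (0.998). The genes whose interval reached past 1.5-fold were psma6l, psmb12, psmc3ip, psmd9 and psme4b, of which psma6l, psmb12 and psmc3ip had mean levels under 10 CPM in both groups. The median log2 fold change was −0.10 for the proteasome genes and 0.025 for all genes, with 35 of 46 values below 0, against 47.7% of all tested genes. Under scaling by library size alone 29 of 46 values were above 0 and the proteasome median was 0.049, but the median of all genes was then 0.17, so that the difference between the medians was −0.12 in place of −0.13. In the limma fits on log2(FPKM + 1) and log2(FPKM + 0.1) that difference was −0.020 and −0.086. Without CTRL replicate 5 the proteasome median was −0.038, with 28 values below and 19 above 0, and the difference from the median of all genes was −0.057.

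**Figure D1:**
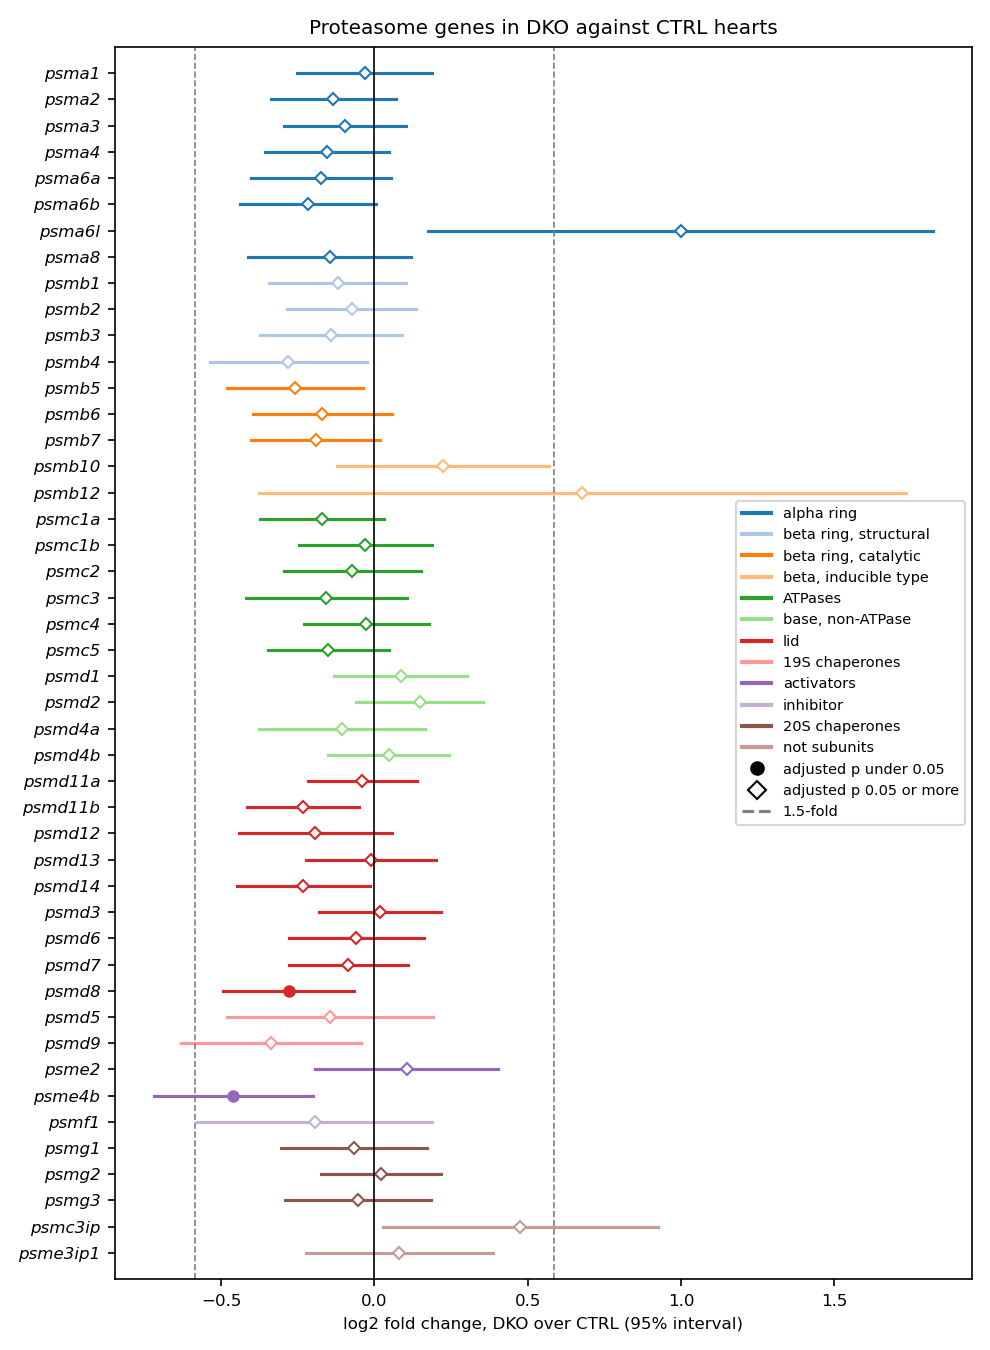
Log2 fold change (DKO over CTRL, x axis) of each tested proteasome gene (rows, coloured by structural class), with lines for the 95% interval of edgeR's quasi-likelihood fit and dashed lines at 1.5-fold. Psme4b and psmd8 have filled points (adjusted p under 0.05), and most other intervals lie between the dashed lines.

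In the constitutive core particle the tested genes other than psma6l had small values of like sign. Of its 15 symbols other than psma6l, 14 were tested. All 14 had values below 0, between −0.28 and −0.033 on the log2 scale, and none passed the adjusted threshold by edgeR's quasi-likelihood test, with 2 of them (psmb4 and psmb5) at an unadjusted p under 0.05. Under library size alone the values of all genes moved up by a median of 0.15, which put the smaller of these values above 0. In the alpha ring, the gate of the barrel, the 7 tested genes other than psma6l ranged from −0.22 for psma6b to −0.033 for psma1.

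Psmb5 encodes the subunit with chymotrypsin-like activity, the site blocked by clinical proteasome inhibitors. It was at 189, 246 and 286 CPM in DKO and 252, 293 and 384 CPM in CTRL (lowest, median and highest of 8). All 8 DKO libraries were below the CTRL median and 5 were below the lowest CTRL library, while the ranges overlapped. The log2 fold change was −0.26 ± 0.11 (SE; adjusted p = 0.0771 by edgeR's quasi-likelihood test with Benjamini-Hochberg adjustment). The other catalytic subunits, psmb6 (caspase-like) and psmb7 (trypsin-like), had log2 fold changes of −0.17 and −0.19, with adjusted p = 0.280 and 0.175 in the same test. Without CTRL replicate 5 psmb5 was at −0.20 (adjusted p = 0.153 by the same edgeR test). Under library size alone psmb5 was at −0.11 (adjusted p = 0.421 by edgeR). The limma fits gave −0.10 and −0.11 for psmb5 (adjusted p = 0.428 in each), and edgeR with a replicate block −0.26 (adjusted p = 0.0407).

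Psmb4, a structural beta subunit, was at 86.6, 107 and 121 CPM in DKO and 98.1, 128 and 195 CPM in CTRL (lowest, median and highest). All 8 DKO libraries were below the CTRL median, and the highest CTRL value was that of replicate 5, far above the next at 140 CPM. Its log2 fold change was −0.28 ± 0.12 (SE; adjusted p = 0.0992 by edgeR's quasi-likelihood test), and without CTRL replicate 5 it was −0.17. The structural subunits psmb1, psmb2 and psmb3 had values of −0.12, −0.074 and −0.14.

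Psma6l, a psma6-like gene beside the paralogs psma6a and psma6b, was the one constitutive core gene with a value above 0. It was expressed at 1.16, 3.88 and 5.32 CPM in DKO and 0.597, 1.51 and 4.43 CPM in CTRL (lowest, median and highest). In all, 7 DKO libraries were above the CTRL median, and CTRL replicates 2, 3, 4 and 6 lay within the DKO range. The log2 fold change of 0.999 ± 0.40 (SE) did not pass the adjusted threshold by edgeR's quasi-likelihood test (adjusted p = 0.0667), but did without CTRL replicate 6 (1.35, adjusted p = 0.0131) and without DKO replicate 8 (1.14, adjusted p = 0.0321). DESeq2, scaling by library size alone and both limma fits also called it, with adjusted p of 0.0222 to 0.0434.

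The beta subunits of the immunoproteasome and thymoproteasome types were present at low levels. In the immunoproteasome, inducible catalytic subunits take the place of the constitutive ones, and they are known for their induction by interferon and their abundance in leukocytes. Psmb10, the inducible counterpart of psmb7, was at 18.3, 32.9 and 43.1 CPM in DKO and 18.9, 26.5 and 39.0 CPM in CTRL (lowest, median and highest). The ranges overlapped almost fully, and the log2 fold change was 0.22 ± 0.17 (SE; adjusted p = 0.364 by edgeR's quasi-likelihood test). For psmb12 it was 0.68 ± 0.51 (SE; adjusted p = 0.365 in the same test), with 0.369 to 2.81 CPM in DKO and 0.116 to 2.01 CPM in CTRL.

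Psmb8a and psmb9a, inducible counterparts of psmb5 and psmb6, fell under the filter on low counts. Psmb9a had 30, 20, 4, 36, 14, 9, 20 and 52 reads in DKO replicates 1 to 8 and 1, 24, 0, 3, 5, 5, 8 and 2 reads in CTRL replicates 1 to 8. Most DKO libraries were above most CTRL libraries, with CTRL replicate 2 above the DKO median of 20 reads and DKO replicate 3 low. Summed over libraries and divided by depth, the ratio of DKO to CTRL was 2.80 (185 against 48 reads; 95% interval 2.03 to 3.93, which covers counting error only). Without the filter its adjusted p was 0.0909 by edgeR's quasi-likelihood test, and limma on log2(FPKM + 1) gave an adjusted p of 0.0126. Psmb8a had 28 reads in 7 of 8 DKO libraries, 11 of them in replicate 2, and 2 reads in 2 of 8 CTRL libraries. The ratio per depth was 10.2, with an interval of 2.57 to 88.1 that again covers counting error only. Its adjusted p was 0.0241 by edgeR's quasi-likelihood test without the filter. Psmb13a had 31 reads in DKO and 47 in CTRL, psmb11a 8 and 5, and psmb11b 93 and 74. RefSeq gene models on the GRCz12tu assembly place psmb13a across psmb8a, psmb9a, psmb12 and the peptide transporter gene tap2a, so how reads were assigned among these genes is uncertain. The leukocyte markers given above were also higher in DKO, and mpeg1.1, a macrophage marker, stayed under 1 CPM in every library; their part in these values was not tested.

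In the regulatory particle 19 of 20 subunit genes were tested, with a median log2 fold change of −0.073 and a range of −0.28 to 0.15. For all 19 the interval lay within 1.5-fold in both directions. Psmd8, a lid subunit, was at 230, 276 and 353 CPM in DKO and 274, 337 and 432 CPM in CTRL (lowest, median and highest). In all, 7 DKO libraries were below the CTRL median and 4 were below the lowest CTRL library. The log2 fold change was −0.28 ± 0.10 (SE; adjusted p = 0.0480 by edgeR's quasi-likelihood test). This call was near its threshold: the adjusted p remained under 0.05 in 3 of the 16 fits that each left out 1 library (those lacking DKO replicate 5 or 1 of the CTRL replicates 3 and 4), and across all 16 it ranged from 0.0178 to 0.0959 with fold changes of −0.33 to −0.22. It was also lost under library size alone (−0.13, adjusted p = 0.341), without the filter on low counts (−0.28, adjusted p = 0.0672) and in both limma fits (−0.13 in each, adjusted p = 0.323 and 0.320).

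Psmd11b, a lid scaffold subunit, was at 210, 236 and 286 CPM in DKO and 247, 289 and 333 CPM in CTRL (lowest, median and highest), with all 8 DKO libraries below the CTRL median. Its log2 fold change was −0.23 ± 0.088 (SE; adjusted p = 0.0551 by edgeR's quasi-likelihood test), and DESeq2 called it (adjusted p = 0.0321). Leaving out CTRL replicate 4 or DKO replicate 5, 6 or 8 also took it past the threshold, with adjusted p of 0.0350 to 0.0454. It was not called when any other library was left out. Nor was psmd11b called under library size alone, without the filter on low counts, with a replicate block or in either limma fit. Psmd14, the deubiquitinase of the lid, had a log2 fold change of −0.23 ± 0.10 (SE) with an adjusted p of 0.11 by edgeR's quasi-likelihood test. The other lid genes, psmd3, psmd6, psmd7, psmd11a, psmd12 and psmd13, lay between −0.19 and 0.018.

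The 6 tested ATPase genes had values of −0.17 to −0.026. Psmc1a had the smallest p among them, at 129, 153 and 178 CPM in DKO and 146, 168 and 228 CPM in CTRL (lowest, median and highest). Its ranges overlapped, and the log2 fold change was −0.17 ± 0.10 (SE; adjusted p = 0.213 by edgeR's quasi-likelihood test). Psmc6 had 28 reads in DKO and 10 in CTRL and was not tested. The FPKM table holds no value for psmc6, psma5, psmd10, psme1 and psme3, and the cause of their low or absent counts was not tested. Psma5 and psme1 had 0 reads in every library, which allows up to 0.0278 CPM over the DKO libraries and 0.0382 CPM over the CTRL libraries (3 reads per group). These limits apply to the transcripts only if their reads could be assigned to the 2 genes, which was not tested. Psmd10 had 0 reads in DKO and 2 in CTRL, and psme3 5 and 4.

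The 4 base subunits without ATPase activity had a median log2 fold change of 0.066, with 3 of 4 values above 0. Psmd2, a base scaffold that docks ubiquitin shuttle factors, was at 188, 242 and 282 CPM in DKO and 177, 224 and 249 CPM in CTRL (lowest, median and highest). In 3 DKO libraries it was above every CTRL library, and the log2 fold change was 0.15 ± 0.10 (SE; adjusted p = 0.307 by edgeR's quasi-likelihood test). It was called under library size alone and both limma fits, with values of 0.26 to 0.29 and adjusted p of 0.0442 to 0.0492. These settings all scale by the library total, without TMM. Psmd1, the second base scaffold, had a value of 0.085, with 4 DKO libraries above the CTRL median and 4 below. Both scaffolds had their lowest CTRL value in replicate 5, at 177 CPM for psmd2 and 362 CPM for psmd1. Without that library psmd2 was at 0.11. The paralogs psmd4a and psmd4b, ubiquitin receptors, had values of −0.11 and 0.047.

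**Figure D2:**
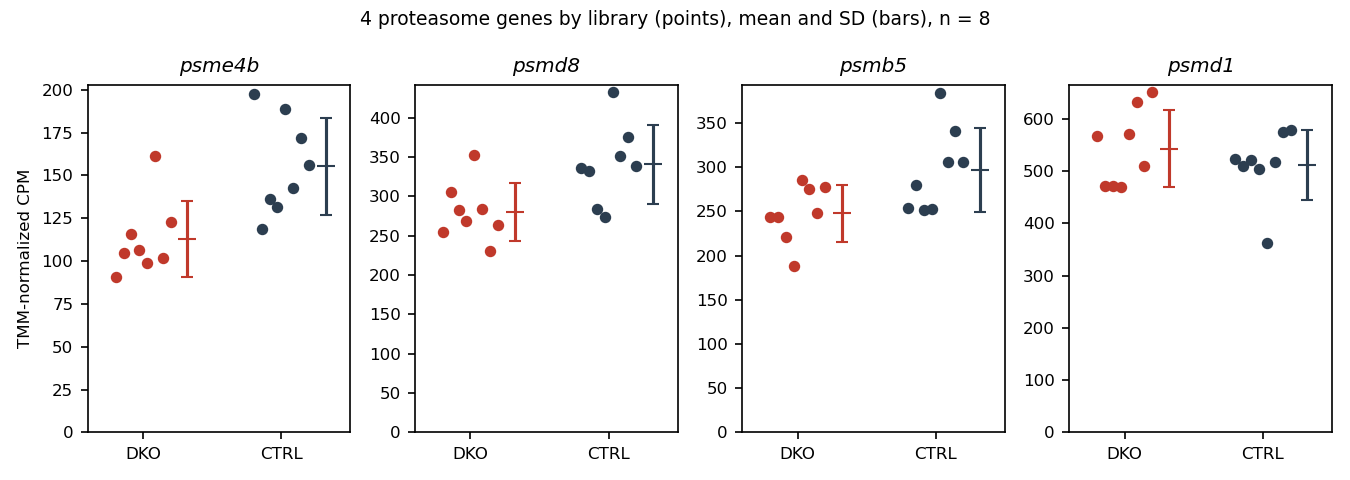
TMM-normalized CPM (y axis, from 0) of psme4b, psmd8, psmb5 and psmd1 in 8 DKO and 8 CTRL libraries, 1 point per library, with the mean and SD beside the points. Psme4b averages 113 CPM in DKO and 155 CPM in CTRL, and for psmd1 CTRL replicate 5 lies low at 362 CPM.

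The smallest p among the tested proteasome genes was that of psme4b, one paralog of the activator PSME4, which in mammals caps the core particle without using ATP and is linked to acetylated histones. It was at 90.7, 106 and 162 CPM in DKO and 119, 149 and 198 CPM in CTRL (lowest, median and highest). In 6 DKO libraries it was below every CTRL library, while DKO replicate 6, at 162 CPM, lay among the CTRL values. The means were 113 ± 22.0 CPM in DKO and 155 ± 28.3 CPM in CTRL (SD, n = 8 each), and the log2 fold change was −0.46 ± 0.12 (SE), or a ratio of 0.726 with a 95% interval of 0.607 to 0.869. The adjusted p was 0.00855 by edgeR's quasi-likelihood test with Benjamini-Hochberg adjustment. In each of the 16 fits that left out 1 library psme4b stayed past the threshold, with log2 fold changes of −0.55 to −0.40 and adjusted p of 0.0010 to 0.0220. Its highest FPKM was 2.85, under the minimum of 5 that the thresholds of the study require. Psme2, an interferon-inducible activator subunit in mammals, differed by 0.10 ± 0.14 on the log2 scale (SE; adjusted p = 0.652 by edgeR).

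Of the assembly factors and the inhibitor, psmd9 alone had an unadjusted p under 0.05, and it did not pass the adjusted threshold. Psmd9, a chaperone of the base, was at 24.5, 28.0 and 40.3 CPM in DKO and 29.2, 35.6 and 55.3 CPM in CTRL (lowest, median and highest). In 5 DKO libraries it was below every CTRL library, but DKO replicates 3 and 5 were above the CTRL median. The log2 fold change was −0.34 ± 0.14 (SE; adjusted p = 0.0826 by edgeR's quasi-likelihood test), and it passed the threshold without DKO replicate 3 (−0.41, adjusted p = 0.0347). Psmd5, a second chaperone of the base, had a value of −0.14.

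The core chaperones psmg1, psmg2 and psmg3 had values of −0.067, 0.021 and −0.054. Psmg1, which pairs with psmg2 to build the alpha ring, was at 34.1, 47.1 and 50.2 CPM in DKO and 35.5, 46.3 and 63.7 CPM in CTRL (lowest, median and highest; adjusted p = 0.722 by edgeR's quasi-likelihood test). Psmf1, a proteasome inhibitor in vitro, was at 10.2, 16.1 and 21.1 CPM in DKO and 11.9, 18.2 and 23.6 CPM in CTRL (lowest, median and highest), and its fold change was −0.19 ± 0.18 on the log2 scale (SE; adjusted p = 0.492 by edgeR). For both genes the groups overlapped, with 1 DKO library of psmg1 and 3 of psmf1 below every CTRL library. Psmc3ip and psme3ip1 matched by name but are not subunits. Psmc3ip, a cofactor of meiotic recombination in mammals, was at 5.21, 9.84 and 14.3 CPM in DKO and 5.04, 6.80 and 9.62 CPM in CTRL (lowest, median and highest). In 4 DKO libraries it was above every CTRL library, and the log2 fold change was 0.48 ± 0.22 (SE; adjusted p = 0.111 by edgeR's quasi-likelihood test, and 0.0420 without DKO replicate 8). Psme3ip1 had a value of 0.081.

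The genes varied together from library to library. CTRL replicate 5 held the highest CPM of its group for 35 of the 46 tested proteasome genes, against 25.3% of all tested genes, and the median over the proteasome genes there was 0.43 above the mean of the 16 libraries on the log2 scale, with the next CTRL library at 0.22. The base scaffolds went the other way: psmd1 was at 362 CPM in CTRL replicate 5, against 504 CPM in the next lowest CTRL library, and psmd2 was at 177 CPM there, its lowest CTRL value. In DKO, replicate 5 held the highest value for 26 of 46 genes, against 10.5% of all tested genes. Medians over the 46 genes ran from −0.21 to 0.16 in the DKO libraries and from −0.20 to 0.43 in the CTRL libraries. Since the genes of a library share its RNA, an equal sign in many of them is not independent evidence of a direction.

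**Figure D3:**
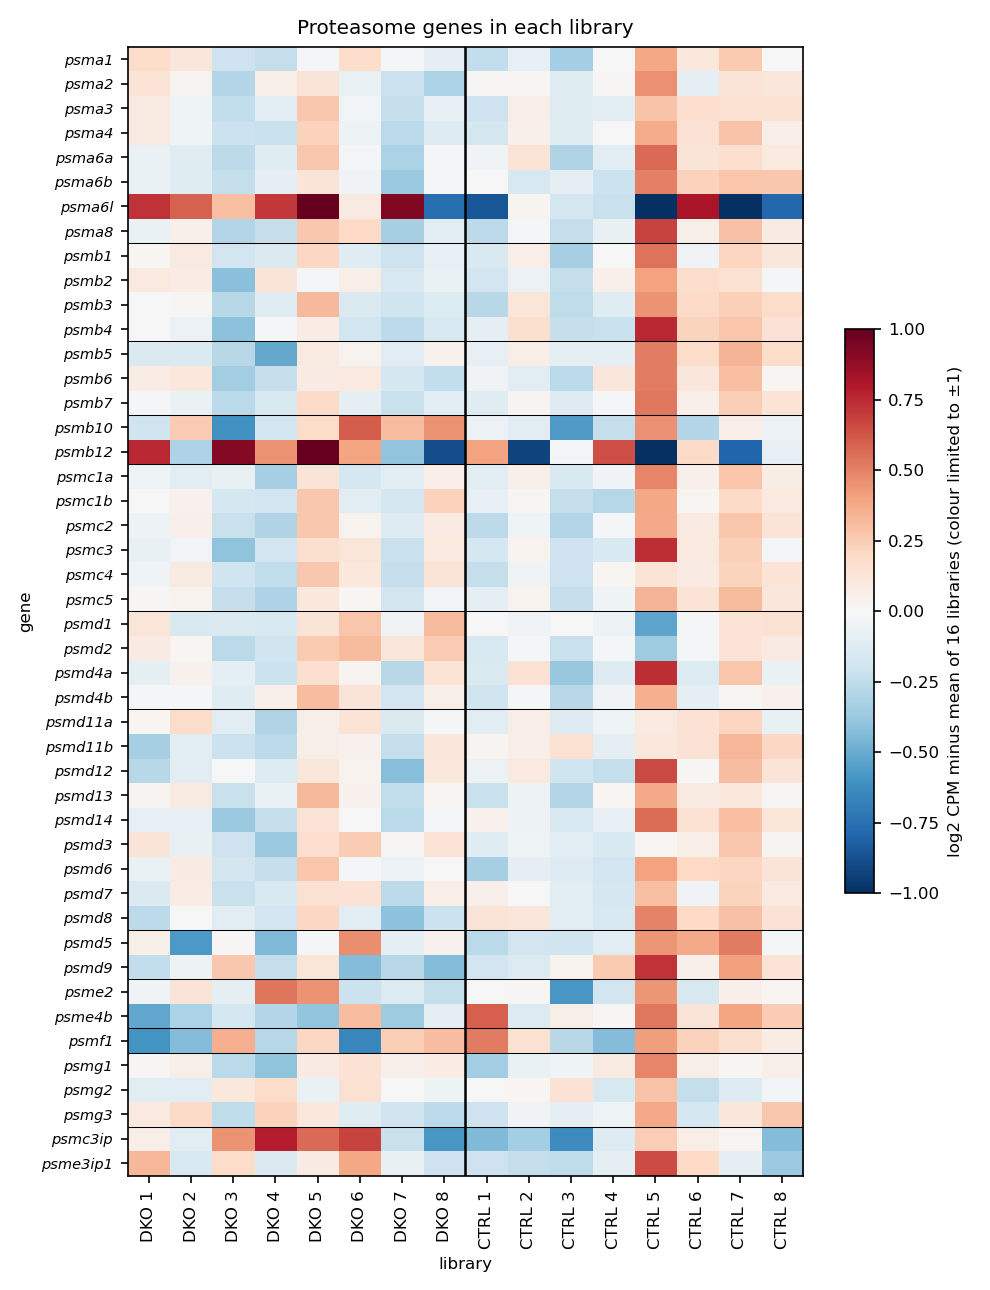
Log2 CPM minus the mean of the 16 libraries (colour, limited to ±1) for each tested proteasome gene (rows, by class) in the 8 DKO and 8 CTRL libraries (columns). CTRL replicate 5 is red for most genes but blue for psma6l, psmb12, psmd1 and psmd2, and DKO replicate 5 is the reddest DKO column.

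Ratios between related genes within a library do not depend on the scaling of libraries, and 5 were compared by exact two-sided permutation tests over the libraries with Benjamini-Hochberg adjustment. The 5 pairs were chosen after values or symbols were seen, and adjustment over 5 does not account for that choice. The log2 ratio of psmc1a to psmc1b was 0.24 ± 0.10 in DKO and 0.37 ± 0.085 in CTRL (SD, n = 8 each), a difference of −0.14 (exact permutation p = 0.0112, adjusted 0.0422). In 6 of 8 DKO libraries it was below the CTRL median. The log2 ratio of psmd11a to psmd11b was −0.79 ± 0.16 in DKO and −0.98 ± 0.13 in CTRL, a difference of 0.19 (exact permutation p = 0.0179, adjusted 0.0422) with 7 of 8 DKO libraries above the CTRL median. The log2 ratio of inducible psmb10 to constitutive psmb7 was −3.98 ± 0.39 in DKO and −4.36 ± 0.16 in CTRL, a difference of 0.39 (exact permutation p = 0.0253, adjusted 0.0422), again with 7 of 8 DKO libraries above the CTRL median.

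All 3 differences kept their direction whichever library was left out, but their adjusted p did not stay under 0.05. For psmc1a to psmc1b it passed in 10 of 16 cases, and was 0.0559 to 0.0824 without CTRL replicate 3, 4 or 7 or DKO replicate 2, 6 or 8. For psmd11a to psmd11b it passed in 7 of 16, namely without CTRL replicate 2, 5 or 6 or DKO replicate 3, 4, 5 or 8, and was at most 0.0824 otherwise. For psmb10 to psmb7 it passed in 6 of 16, namely without CTRL replicate 1 or 5 or DKO replicate 1, 3, 4 or 5, and was at most 0.0844 otherwise. Psmd4a to psmd4b differed by −0.13 (exact permutation p = 0.123, adjusted 0.154) and psma6a to psma6b by 0.040 (p = 0.558 in the same exact test). Paralogs can share reads, and ratios between them rest on how such reads were counted.

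**Figure D4:**
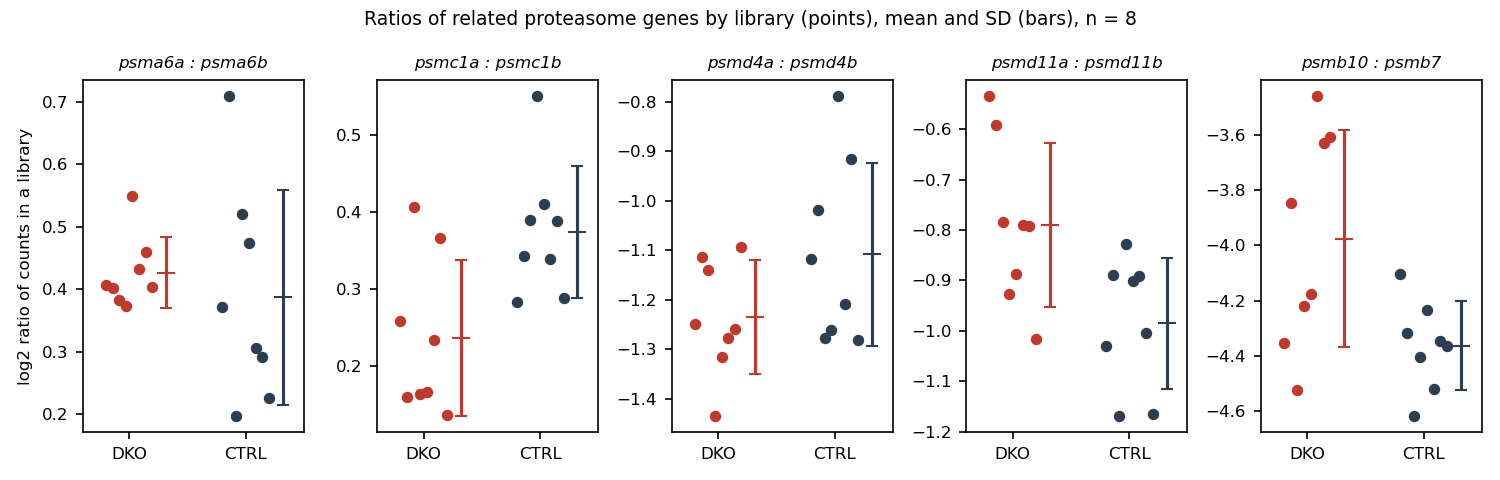
Log2 ratio of counts (y axis, a separate range in each panel) of 5 gene pairs in 8 DKO and 8 CTRL libraries, 1 point per library, with the mean and SD beside the points. The psmd11a to psmd11b and psmb10 to psmb7 ratios lie higher in DKO and the psmc1a to psmc1b ratio lower, and in all 5 panels the groups overlap.

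Among genes that work with the proteasome, 20 of 26 listed partners were tested, of which 2 rose and 1 fell by edgeR's quasi-likelihood test, against 13.2% of all tested genes higher and 13.9% lower. Nfe2l2a, which encodes the oxidative stress response factor Nrf2a, was at 98.6, 128 and 148 CPM in DKO and 66.8, 82.6 and 106 CPM in CTRL (lowest, median and highest). In 6 DKO libraries it was above every CTRL library, and the log2 fold change was 0.58 ± 0.11 (SE; adjusted p = 7.84e-04). Ddi2, the protease that in mammals activates the transcription factor inducing proteasome genes, averaged 134 ± 16.1 CPM in DKO and 99.7 ± 13.8 CPM in CTRL (SD, n = 8 each), with 6 DKO libraries above every CTRL library and a fold change of 0.42 ± 0.10 on the log2 scale (SE; adjusted p = 0.00305 by the same edgeR test). Nfe2l1a of the same list averaged 2.00 CPM in DKO and 2.49 CPM in CTRL (log2 fold change −0.31, adjusted p = 0.477 by the same edgeR test). Nfe2l1b was under 1 CPM in every library. Zfand5b, a paralog of a proteasome-activating zinc finger protein, averaged 77.2 ± 4.13 CPM in DKO and 92.9 ± 12.0 CPM in CTRL (SD, n = 8 each; log2 fold change −0.27, adjusted p = 0.0245 by the same edgeR test). That call was lost without CTRL replicate 6 or 7 or DKO replicate 2 (adjusted p of 0.0508 to 0.0561) and under library size alone (adjusted p = 0.299). Both limma fits also lost it (adjusted p = 0.245 with pseudocount 1 and 0.241 with 0.1).

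Of 18 tested ubiquitin and Vcp genes, 2 passed edgeR's quasi-likelihood test, and both fell, against 27.1% of all tested genes called in either direction and 13.9% lower. Get4, which in mammals works with Bag6 in handling tail-anchored proteins, averaged 90.3 ± 9.20 CPM in DKO and 115 ± 11.7 CPM in CTRL (SD, n = 8 each), and 7 DKO libraries were below every CTRL library (log2 fold change −0.35, adjusted p = 0.00487 by the same edgeR test). Ufd1l, a cofactor of the Vcp unfoldase, averaged 85.2 ± 9.16 CPM in DKO and 107 ± 12.4 CPM in CTRL (SD, n = 8 each; log2 fold change −0.32, adjusted p = 0.0128 by the same edgeR test, and 0.127 under library size alone). Ube4b, a ubiquitin chain elongation factor, had a log2 fold change of 0.19 (adjusted p = 0.117 by the same edgeR test) and was called under library size alone and by both limma fits.

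Of 12 tested muscle ubiquitin ligase genes, 3 passed edgeR's quasi-likelihood test, and all 3 fell, against the same 27.1% and 13.9% of all tested genes. Fbxl22, a cardiac F-box protein of the Z-disc, was at 48.8, 85.7 and 128 CPM in DKO and 141, 237 and 287 CPM in CTRL (lowest, median and highest), so the groups did not overlap. Its log2 fold change was −1.38 ± 0.23 (SE; adjusted p = 2.12e-04 by the same edgeR test). The sarcomere-associated ligase genes trim55a and trim55b fell by 0.86 and 0.90 on the log2 scale (adjusted p = 0.00296 and 0.00722 by the same edgeR test). Cardiomyocyte markers fell over the same libraries, as given above, and their part in these values was not tested.

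Of 16 tested antigen presentation and interferon genes, 4 passed edgeR's quasi-likelihood test, and all 4 rose, against 27.1% of all tested genes called in either direction and 13.2% higher. Leukocyte markers were also higher in DKO, as given above, and their part in these values was not tested. Irf9, a subunit of the interferon-induced transcription complex, averaged 59.5 ± 11.6 CPM in DKO and 37.4 ± 9.99 CPM in CTRL (SD, n = 8 each; log2 fold change 0.67, adjusted p = 0.00259 by the same edgeR test). Mhc1zba, a class I antigen-presenting gene, averaged 102 ± 35.7 CPM in DKO and 64.4 ± 12.4 CPM in CTRL (SD, n = 8 each; log2 fold change 0.66, adjusted p = 0.00930 by the same edgeR test). Irf1b, an interferon regulatory factor, had a log2 fold change of 1.29 (adjusted p = 0.0226 by the same edgeR test), which was 0.71 (adjusted p = 0.0584) without DKO replicate 7. Limma on log2(FPKM + 1) did not call irf1b either (adjusted p = 0.0506). B2ml, a beta-2-microglobulin-like gene, was the fourth, at 97.9 ± 11.9 CPM in DKO and 75.3 ± 16.1 CPM in CTRL (SD, n = 8 each). In the list of 16, 12 values were above 0 and 4 below. Isg15, mxa and mxb of the same list were not called, with log2 fold changes of −0.26, 0.38 and 0.49. Their adjusted p by the same edgeR test was 0.785, 0.614 and 0.517.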

How the data were processed

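Per the paper's methods and the labels, poly(A) RNA was sequenced as paired reads of 150 bp after an ultra-low input preparation, and the authors aligned reads with STAR (version 2.6.1a) to GRCz11 and counted them with HTSeq (version 0.11.2) on the RefSeq annotation. The strand setting is not given in the sources used here. The deposited counts are whole reads per gene, without normalization. Rows without a gene were not used, and reads in no feature made up 59.6% to 65.6% of each library's total. The FPKM values deposited by the authors equal counts divided by the total and by 1 fixed length per gene, close to the gene span with introns, so levels were not compared between genes. FPKM served for the limma alternatives and for the threshold of the study. The limma fits used no TMM scaling. Like library size alone they scale by the library total, so these settings are not independent checks of the scaling.

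Counts were tested with edgeR 4.0.16 (filterByExpr, TMM, robust quasi-likelihood F-test, two-sided, R 4.3.3), 8 DKO against 8 CTRL libraries, with Benjamini-Hochberg adjustment over all genes tested. Standard errors are the size of the log2 fold change over the square root of F. Alternatives were DESeq2 1.42.0, its size factors in edgeR, library size alone, no filter, a replicate block, limma 3.58.1 on log2(FPKM + 1) and log2(FPKM + 0.1), each library left out, and the thresholds of the study. The method was checked on simulated counts. The members and lists were chosen with earlier results of these data known. The unadjusted threshold, the ratios, the interval summary, the reads per library of low genes and the placing of psme3ip1 outside the activators were chosen after values or symbols were seen. Values by library or levels per group were given for the gene with the smallest p in each class and for members with adjusted p under 0.05. The rule also named the 3 genes with the smallest p in each pathway list. Of these, trim55a, trim55b, ube4b and irf1b were given as fold changes without levels. Psmd11b, psmb9a and b2ml, beyond that rule, were chosen after their values were seen. P-values measure the spread between pools. All 56 symbols matched RefSeq of GRCz12tu, 55 by symbol and 1 by synonym (psma2), and psma7 is listed there as a synonym of psma8. RefSeq symbols of the pattern missing from the count table (psma2a, psma2b, psme4a and psmg4) were not analysed here.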

Additional observations from a re-analysis of the deposited data

Results flagged for a closer look

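Of 92 sets of 8 values (46 proteasome genes in 2 groups), 13 held a library whose gap to the nearest other exceeded Dixon's 95% critical value, where chance gives about 1 in 20. CTRL replicate 5 was that library in 8 of them, high for psma2 (171 CPM), psma6a (193 CPM), psmb4 (195 CPM), psmc3 (282 CPM), psmd4b (249 CPM), psme3ip1 (47.3 CPM) and psmg1 (63.7 CPM) and low for psmd1 (362 CPM). DKO replicate 5 was high for psma6a (157 CPM) and psmb3 (327 CPM). DKO replicate 6 was high for psme4b (162 CPM), CTRL replicate 6 for psma6l (4.43 CPM) and CTRL replicate 7 for psmd3 (331 CPM). Genes of a library are not independent, so these flags are not separate events, and their cause was not tested.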

How the results depend on the processing

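Psme4b kept an adjusted p under 0.05 in the 7 other fits to all libraries (log2 fold changes of −0.46 to −0.21, adjusted p of 0.00265 to 0.0320) and in the 16 that left out 1 library (−0.55 to −0.40, 0.0010 to 0.0220), but not the call under the thresholds of the study. Library size alone moved the median of all genes up by 0.15 and the share of calls that were lower in DKO to 31.0% from 51.2%, and 18 proteasome genes changed sign. In both limma fits, which also scale by the library total, 20 changed sign. The proteasome median was then 0.0485 under library size alone, 0.0539 with limma on log2(FPKM + 1) and 0.0657 with log2(FPKM + 0.1), and psmg1 was at 0.0790, 0.0784 and 0.0847 in the same order. Proteasome genes lower in DKO numbered 1 under library size alone, without the filter and in both limma fits, 0 with the thresholds of the study and 7 at an unadjusted p. Those higher numbered 1 with DESeq2 (psma6l), 3 under library size alone, 1 without the filter (psmb8a), 4 and 3 in the limma fits with pseudocounts 1 and 0.1, and 2 at an unadjusted p. The proteasome genes tested numbered 46, but 54 without the filter and 48 in the limma fits. Of all 11750 genes, 2608 were higher and 1170 lower under library size alone, and 1759 higher and 1795 lower with DESeq2. With the thresholds of the study 390 were higher and 548 lower, and at an unadjusted p 2251 higher and 2117 lower. Without the filter 1479 of 14399 genes were higher and 1569 lower. In the limma fits 2515 and 2507 of 11072 were higher and 1167 and 1159 lower, with pseudocounts 1 and 0.1. With each library left out, proteasome genes lower ranged from 1 to 3 and higher from 0 to 2, their median from −0.14 to −0.038, all genes lower from 1435 to 1712 and higher from 1321 to 1660, and psmg1 from −0.12 to 0.0082, above 0 only without CTRL replicate 5. Same-numbered libraries had correlations of −0.27 to 0.11, which gave no sign of pairing by replicate number. The paper compares DKO embryos with siblings of the same clutch, and whether pools were paired by clutch was not tested. With the replicate block 3 proteasome genes were called, all lower (psmb5, psmd8 and psme4b, with an adjusted p of 0.0407 for psmb5 by edgeR's test). Of all 11750 genes, 1616 were lower and 1542 higher with the block. Irf1b lost its call under the block (adjusted p = 0.0606 by the same test). Among the genes given by rule, the gain of psmb5 and the loss of irf1b were the only calls that changed. The intervals of psma6l and psmb12, at few reads, were wide, and 10 genes had too few reads to be tested. Causes were not tested.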
